A study of Mus musculus with 4 samples.

Results

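Kallikreins and the proteins that work with them in desquamation, the shedding of cornified cells from the skin surface, were followed in the RNA of newborn mouse epidermis. The set held 10 genes, chosen by gene name for their role, with earlier results of these data known. The genes were the tissue kallikreins Klk5, Klk6, Klk7, Klk8, Klk10, Klk11, Klk13 and Klk14, the inhibitor gene Spink5 and the membrane protease gene St14. They were 10 of the 54752 gene identifiers measured, and 10 of 10 were among the 13609 protein-coding genes that passed the filter on low values, an FPKM (sequenced fragments corrected for transcript length and sequencing depth) above 0.5 in 1 or more of the samples.

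Total RNA came from the epidermis of 4 newborn (postnatal day 0) C57BL/6 pups, of which 2 were labeled Skiv2l ctl and the other 2 were Skiv2l fl/fl K14-Cre. Skiv2l encodes the RNA helicase of the SKI complex, which feeds RNA into the cytoplasmic exosome. In the Skiv2l fl/fl K14-Cre pups (called knockout here) both alleles are flanked by loxP sites and Cre is expressed constitutively from the K14 promoter, which is active in keratinocytes, so other cells of the epidermis keep the gene. The control group is a mixture by the study's definition, made up of Skiv2l fl/+ pups with or without K14-Cre and of Skiv2l fl/fl pups without it. Each control genotype carries at least 1 floxed allele, and which genotype each control pup had is not given. Skiv2l itself had an FPKM of 19.3 and 19.1 in the control pups and of 10.8 and 8.55 in the knockout pups, a log2 fold change of -0.92 (SE 0.12, limma adjusted p = 0.00368), so the genotype labels and the targeted gene pointed the same way.

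Tissue kallikreins are secreted serine proteases, some trypsin-like and some chymotrypsin-like, that keratinocytes of the granular layer release into the space between cells as inactive precursors. There they cut the extracellular parts of corneodesmosomes, the junctions built from desmoglein 1, desmocollin 1 and corneodesmosin that hold cornified cells together. LEKTI, the multidomain inhibitor encoded by Spink5, holds several of these proteases in check, and its loss in Netherton syndrome leads to premature shedding and a broken barrier. Matriptase, encoded by St14, is a membrane-anchored serine protease that acts with prostasin (Prss8) and can activate kallikrein precursors.

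The 8 kallikrein genes lie on the plus strand of chromosome 7 (GRCm38) within 161 kb, from Klk14 (43690418 to 43695536) through Klk13 (43712567 to 43727534), Klk11 (43774604 to 43779263), Klk10 (43781035 to 43785410), Klk8 (43797577 to 43803826), Klk7 (43811294 to 43816359) and Klk6 (43824499 to 43832030) to Klk5 (43841971 to 43851181). Klk12 and Klk9, which were not in the set, lie between Klk13 and Klk8.

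The DNA just before the first annotated base of 4 of the genes is shown to set Klk6, Klk10 and Klk13, the abundant members with the largest rise, beside Klk8, the member with the smallest rise, which shares their cluster and strand. Sequences are from RefSeq's GRCm38.p6 and run 5′ to 3′ on the plus strand, which is the coding strand of each gene. Capitals mark GGGCGG, the core of the GC box, or CCGCCC, the same motif on the other strand.
Klk6, chr7:43824294-43824498: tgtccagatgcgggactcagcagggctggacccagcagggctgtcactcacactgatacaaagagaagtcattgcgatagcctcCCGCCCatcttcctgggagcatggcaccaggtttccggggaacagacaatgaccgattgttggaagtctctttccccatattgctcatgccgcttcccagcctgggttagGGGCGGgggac
Klk10, chr7:43780804-43781034: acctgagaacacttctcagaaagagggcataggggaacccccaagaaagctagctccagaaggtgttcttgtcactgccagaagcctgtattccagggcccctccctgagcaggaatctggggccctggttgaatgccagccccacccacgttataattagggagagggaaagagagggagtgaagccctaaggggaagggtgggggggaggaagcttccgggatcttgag
Klk13, chr7:43712317-43712566: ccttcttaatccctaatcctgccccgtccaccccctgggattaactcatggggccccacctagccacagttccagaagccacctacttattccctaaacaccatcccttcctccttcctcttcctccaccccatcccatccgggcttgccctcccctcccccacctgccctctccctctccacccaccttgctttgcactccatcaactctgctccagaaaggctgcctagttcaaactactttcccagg
Klk8, chr7:43797327-43797576: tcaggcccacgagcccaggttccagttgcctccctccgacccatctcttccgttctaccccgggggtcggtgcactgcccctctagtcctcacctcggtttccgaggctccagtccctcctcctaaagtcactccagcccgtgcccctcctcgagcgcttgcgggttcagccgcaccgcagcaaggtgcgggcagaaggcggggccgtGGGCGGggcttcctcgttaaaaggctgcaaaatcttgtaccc

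The stretch before Klk6 held the GC box core once on each strand and that before Klk8 held it once, whereas those before Klk10 and Klk13 held none. Promoter windows of 300 bases were given for 8 of the 10 members and for Klk9 and Klk12, 12 windows in all, and 11 short motifs were searched on both strands. The GC box core was in 5 of the 12 windows (Klk9, Klk8, Klk7 and both windows of Klk6), against 35.7% of the 32851 windows of all genes. The CCAAT box, CCAAT, was in 2 of them (Klk11 and Klk9) against 37.4% of all. The CRE-like sequence TGATNNCA was in 2 (Klk14 and Klk7) against 13.2%. The p53 half-site core CATGCC was in 1 (Klk6) against 11.6%. No kallikrein window held the TATA box TATAAA (13.6% of all windows), the AP-1 site TGANTCA (7.81%), the grainyhead-like site AACNGGTT (2.09%), the E-box CACGTG (7.15%), the Kruppel-like site GGGGTGGGG (6.18%), the C/EBP site TTNCGCAA (0.798%) or the CHOP site TGATGCAA (0.895%). None of these motifs contains another, and a match describes letters only. No motif was present in the windows of every kallikrein that was higher.

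Most kallikreins and Spink5 were more abundant in knockout epidermis. Of the 10 members, 8 were higher (Klk6, Klk10, Klk14, Klk13, Spink5, Klk7, Klk11 and Klk8), none was lower, and 2 (Klk5 and St14) did not pass the test. The test was limma on log2(FPKM + 1) with a Benjamini-Hochberg adjusted p under 0.05 over all 13609 genes. Klk14 passed the filter on its knockout values alone, so a lower call was not open to it. Over all tested genes 8.99% were higher and 25.4% were lower, 1223 and 3455 genes. Because the members were chosen with earlier results of these data known, the contrast with these shares is a description, not a test. With each library scaled to the same median, 1894 genes were higher and 1623 lower, and the members' count stayed at 8 higher. The median log2 fold change was 0.91 over the 10 members and -0.20 over all tested genes. In 8 of the 10 members both knockout pups lay above both control pups, an order that held for 18.2% of all tested genes. Leaving out a control pup brought the count of members called higher to 5, with Klk8, Klk11 and Klk14 no longer past the threshold. In bulk RNA of this kind, more cells of a type and more RNA per cell cannot be told apart.

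**Figure D1:**
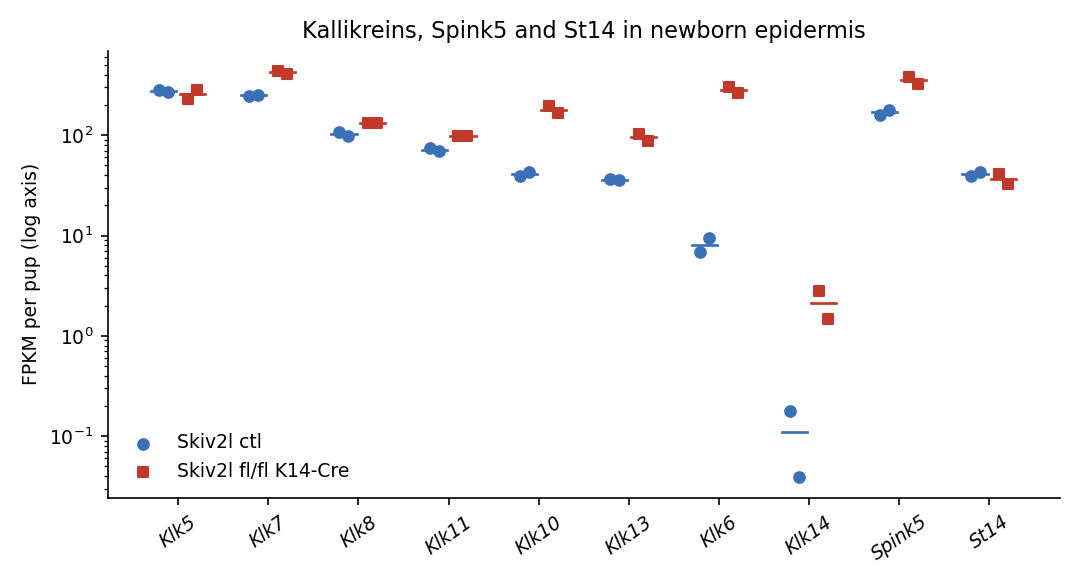
FPKM on a log axis for each of the 10 genes in each pup, with a short line at each group mean (circles, Skiv2l ctl, n = 2; squares, Skiv2l fl/fl K14-Cre, n = 2). Klk6 moved from 6.81 and 9.39 in control epidermis to 306 and 263 in knockout epidermis, while the points of Klk5 and of St14 overlapped between genotypes.

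Klk6, a trypsin-like kallikrein also known as neurosin, showed the largest difference. Its FPKM was 6.81 and 9.39 in the control pups and 306 and 263 in the knockout pups. Both knockout values were far above both controls, and the log2 fold change of 4.98 (SE 0.15, limma adjusted p = 2.94e-05) placed it at rank 11 of the 13609 genes ordered from the most increased. Ranked by mean level, it went from place 6664 in the controls to place 141 in the knockouts.

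Klk10, first described in humans as a gene of normal epithelial cells, had an FPKM of 39.6 and 42.8 in the control pups and of 194 and 166 in the knockout pups. The groups were well apart, with a log2 fold change of 2.10 (SE 0.10, limma adjusted p = 0.000149). Klk13, a trypsin-like kallikrein of stratified epithelia, had an FPKM of 36.7 and 35.7 in the controls against 102 and 87.5 in the knockouts, again without overlap. The log2 fold change was 1.36 (SE 0.10, limma adjusted p = 0.000534). These 2 genes had similar control levels on FPKM, though not on the deposited coverage, and both were more than 2-fold higher in each knockout pup, with pup 1 the higher of the knockouts.

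Klk14, a highly active trypsin-like kallikrein of human skin that can activate other kallikreins, was the least abundant member. It had an FPKM of 0.179 and 0.0387 in the control pups and of 2.82 and 1.46 in the knockout pups. Only the knockout pups took it past the filter of 0.5. Both knockout values were above both controls, and knockout pup 1 had 1.94 times the level of knockout pup 2, the widest gap between the knockout pups of any member. The log2 fold change on the log2(FPKM + 1) scale was 1.47 (SE 0.23, limma adjusted p = 0.00620), and it was 3.44 with a pseudocount of 0.1 and 2.32 on TPM, so its size depended on the scale. The adjusted p ranged from 0.000965 to 0.0655 over the alternative settings, the highest without control pup 2.

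Klk7, the chymotrypsin-like stratum corneum enzyme that cuts corneodesmosin and desmocollin 1, had an FPKM of 248.6 and 249.5 in the control pups and of 436 and 408 in the knockout pups. The log2 fold change was 0.76 (SE 0.083, limma adjusted p = 0.00185), a ratio of 1.69 between group means. With its high starting level, this modest fold added more FPKM than any other kallikrein of the set except Klk6, and Klk7 was the most abundant member in the knockouts.

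Klk11 and Klk8, trypsin-like kallikreins of the granular layer, had the smallest differences that passed. Klk11 had an FPKM of 73.8 and 69.3 in the controls against 99.2 and 98.8 in the knockouts, a log2 fold change of 0.46 (SE 0.080, limma adjusted p = 0.00825). Klk8, also known as neuropsin, had 109 and 97.1 in the controls against 132 and 134 in the knockouts, a log2 fold change of 0.37 (SE 0.089, limma adjusted p = 0.0246). Neither gene overlapped between genotypes, yet Klk8 passed only narrowly: its adjusted p ranged from 0.00739 to 0.148 over the alternative settings and was above 0.05 when any 1 of the 4 pups was left out. The adjusted p of Klk11 ranged from 0.00269 to 0.0792, above the threshold without either control pup.

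An antisense gene, 2310002F09Rik, overlaps exons of Klk8 and Klk14. Of the 75-base stretches in the annotated transcripts of Klk8, 20.3% also occur in this gene on the other strand, and 18.9% of those of Klk14 occur in it or in other genes. Whether reads were assigned by strand is not given in the sources used here, so reads of these overlapping genes may not have been told apart. The antisense gene had an FPKM of 4.32 and 4.38 in the controls against 4.89 and 3.63 in the knockouts. On FPKM it was far below Klk8 and above Klk14 in every pup. On the deposited coverage, scaled to each library's depth, it was above Klk14 in the controls only. There it was at 1.19 and 0.843 in the knockouts, below Klk14 at 2.82 and 1.46. The other 8 members shared no such stretch with another gene.

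Klk5, the trypsin-like kallikrein that can activate itself and then Klk7, did not follow its neighbors. Its FPKM was 285 and 271 in the control pups and 230 and 283 in the knockout pups, so the groups overlapped. The log2 fold change was -0.12 (SE 0.12, 95% interval -0.41 to 0.16, limma adjusted p = 0.426), and it became 0.088 with each library scaled to the same median. The upper end of this interval was below the log2 fold change of each kallikrein that passed, the closest being Klk8, whose own 95% interval ran from 0.15 to 0.58. The difference between genes was not tested.

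**Figure D2:**
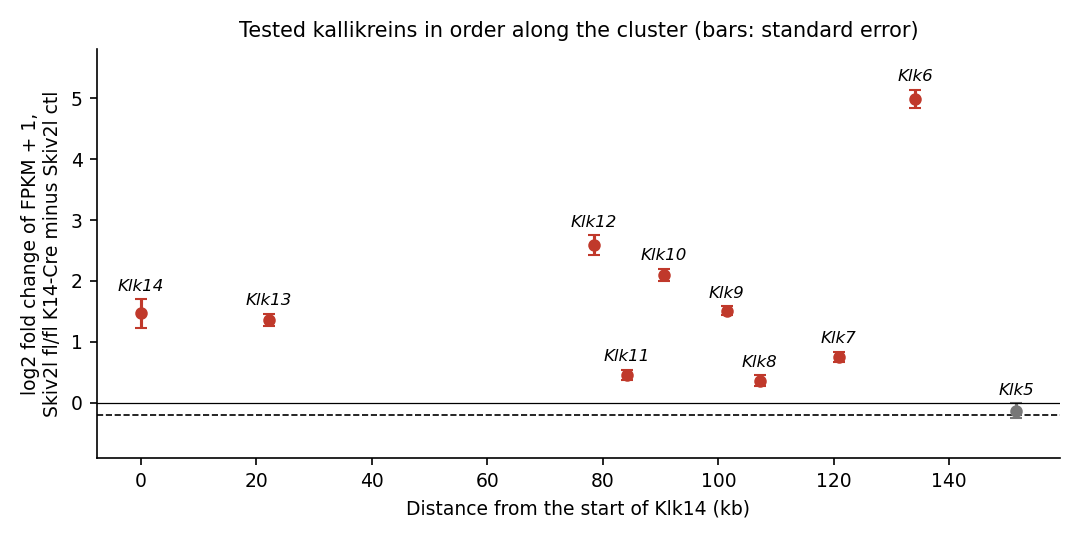
Log2 fold change of FPKM + 1 with its standard error (vertical axis) for the 10 tested kallikreins by distance of each gene's start from that of Klk14 in kb (horizontal axis). Red points passed limma at an adjusted p under 0.05, the gray point did not, and the dashed line is the median of all tested genes at -0.20; Klk6 at 4.98 sits between Klk7 at 0.76 and Klk5 at -0.12.

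Along the chromosome the size of the difference did not run in order. Klk5 lies next to Klk6, and the pair held the smallest and the largest log2 fold change of the 8. Klk12, a trypsin-like kallikrein between Klk13 and Klk11, had an FPKM of 1.91 and 2.54 in the controls against 20.9 and 15.97 in the knockouts (log2 fold change 2.59, SE 0.17, limma adjusted p = 0.000346). Klk9, between Klk10 and Klk8, had 89.4 and 90.9 against 256 and 263 (1.51, SE 0.077, limma adjusted p = 0.000167). Of the 10 tested kallikreins of the cluster, 9 were higher, Klk14 among them, against 8.99% of all tested genes. Their median log2 fold change was 1.42. The other 3 tissue kallikreins, Klk1, Klk4 and Klk15, were below the filter. Of the 13 Klk1b genes, a rodent expansion of salivary and renal type on the same chromosome, 11 were at 0 in all 4 libraries and the highest FPKM of the others was 0.0388.

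Spink5, on the plus strand of chromosome 18 (43963235 to 44022501), was higher as well. Its FPKM was 159 and 180 in the control pups and 382 and 327 in the knockout pups, without overlap. The log2 fold change was 1.06 (SE 0.11, limma adjusted p = 0.00166), a ratio of 2.09 between group means. Spink5 had the third place among the 10 members in the controls and the place after Klk7 in the knockouts.

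St14, on the minus strand of chromosome 9 (31089402 to 31131853), did not pass the test. Its FPKM was 39.2 and 42.9 in the control pups and 41.1 and 32.8 in the knockout pups, with knockout pup 1 inside the range of the controls and knockout pup 2 below it. The log2 fold change was -0.15 (SE 0.13, 95% interval -0.46 to 0.15, limma adjusted p = 0.361), and it became 0.054 with each library scaled to the same median. Prostasin (Prss8), its partner protease, had an FPKM of 51.6 and 51.0 in the controls against 55.3 and 53.1 in the knockouts (log2 fold change 0.08, limma adjusted p = 0.452). Spint1, which encodes the matriptase inhibitor HAI-1, had 41.2 in each control pup and 41.4 and 39.3 in the knockouts (-0.03, limma adjusted p = 0.795). The ratio of St14 to Spint1 was 0.950 and 1.04 in the controls against 0.994 and 0.834 in the knockouts, which overlap.

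Summed over the 8 kallikreins of the set, FPKM was 800 and 775 in the control pups and 1502 and 1442 in the knockout pups. The group means were 787 ± 17.6 and 1472 ± 42.5 (SD, n = 2 each), a 1.87-fold difference with no overlap, and the exact two-sided permutation p of 0.333 is the smallest that 2 against 2 can give. With Klk9 and Klk12 added the sums were 891 and 868 against 1779 and 1720. The sum of the 8 divided by Spink5 was 5.03 and 4.31 in the controls against 3.93 and 4.41 in the knockouts, overlapping ranges (exact permutation p = 0.667). The summed kallikrein and Spink5 transcripts thus differed in the same direction, and the ratio of the sum did not separate the genotypes. Ratios of single kallikreins to Spink5 went in opposite directions. Klk6 to Spink5 was 0.0428 and 0.0522 in the controls against 0.800 and 0.805 in the knockouts. Klk7 to Spink5 was 1.56 and 1.39 in the controls against 1.14 and 1.25 in the knockouts.

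The makeup of the kallikrein pool differed more than its ratio to Spink5. Klk5 made up 35.67% and 34.99% of the summed FPKM of the 8 in the controls against 15.3% and 19.6% in the knockouts. Klk6 made up 0.851% and 1.21% in the controls against 20.4% and 18.3% in the knockouts. Klk10 went from 4.95% and 5.52% to 12.9% and 11.5%. The share of Klk7 was 31.1% and 32.2% against 29.0% and 28.3%.

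Single ratios showed the same shift. Klk6 to Klk5 was 0.0239 and 0.0346 in the controls against 1.33 and 0.930 in the knockouts. Klk7 to Klk5 was 0.872 and 0.920 in the controls against 1.90 and 1.44 in the knockouts. Each of the 2 ratios separated the genotypes, as did Klk5 to Spink5, which was 1.79 and 1.51 in the controls against 0.602 and 0.865 in the knockouts. The exact permutation p of each was 0.333, the smallest possible here.

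**Figure D3:**
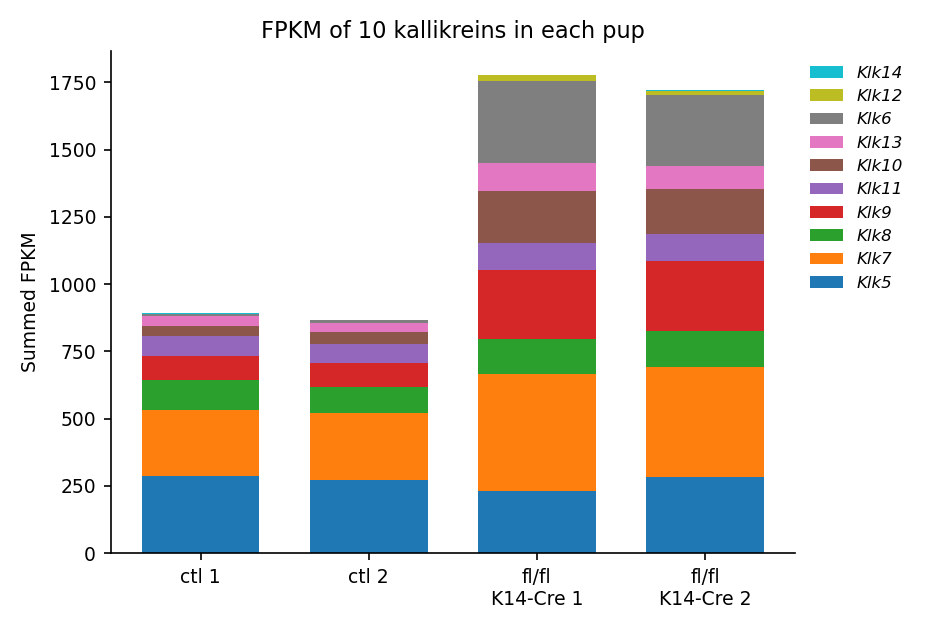
Summed FPKM (vertical axis) of 10 kallikreins, stacked by gene, in each of the 4 pups (horizontal axis; 2 Skiv2l ctl and 2 Skiv2l fl/fl K14-Cre). The total went from 891 and 868 to 1779 and 1720, with the Klk5 block of like size in all bars and the Klk6 block visible mainly in the knockouts.

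By mean FPKM, which is per length of transcript, the order in the controls was Klk5, Klk7, Spink5, Klk8, Klk11, Klk10, St14, Klk13, Klk6 and Klk14. Of neighbors in this order, Klk10 (39.6 and 42.8) and St14 (39.2 and 42.9) overlapped and the others did not. In the knockouts the order was Klk7, Spink5, Klk6, Klk5, Klk10, Klk8, Klk11, Klk13, St14 and Klk14. There Klk6 (306 and 263) overlapped with Klk5 (230 and 283), and Klk11 (99.2 and 98.8) with Klk13 (102 and 87.5). Levels of genes with several annotated transcripts depend on how length was counted. On the deposited coverage, scaled to each library's depth, Klk13 was at 6.97 and 6.93 in the controls against 20.7 and 17.9 in the knockouts, and St14 at 16.3 and 18.0 against 17.1 and 13.7, below their FPKM. On that scale Klk5, at 229 and 219 in the controls, was below Klk7, at 248.6 and 249.5. The same 8 members were called higher on coverage.

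Transcripts of corneodesmosome proteins, both the extracellular ones that kallikreins cut and the intracellular plaque proteins, were mostly higher. Of 8 such genes 6 were higher and none lower, against 8.99% and 25.4% of all tested genes. Their median log2 fold change was 0.61. Dsg1b, a desmoglein 1 gene, had an FPKM of 167 and 182 in the controls against 385 and 394 in the knockouts (log2 fold change 1.16, SE 0.085, limma adjusted p = 0.000539). Cdsn, the corneodesmosin gene, had 568 and 599 against 929 and 942 (0.68, SE 0.087, limma adjusted p = 0.00307). Dsc1, the desmocollin 1 gene, had 365 and 403 against 621 and 615 (0.69, SE 0.090, limma adjusted p = 0.00334), and Dsp, which encodes the plaque protein desmoplakin, had a log2 fold change of 0.71 (SE 0.097). Dsg1a, the near copy of Dsg1b, had 260 and 290 against 285 and 298 (0.09, limma adjusted p = 0.473), and reads of these paralogs may be split unevenly.

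Among 18 other serine protease inhibitors 11 were tested, with a median of 0.38. Of these 5 were higher and 1 lower, against 8.99% and 25.4% of all tested genes. Slpi, a secreted inhibitor of elastase-like and chymotrypsin-like enzymes that also acts on Klk7, had an FPKM of 1.528 and 1.496 in the controls against 99.6 and 71.3 in the knockouts (log2 fold change 5.09, SE 0.16, limma adjusted p = 3.12e-05). Spink7, of the same inhibitor family as Spink5, had 1.08 and 1.29 against 29.0 and 37.0 (3.95, SE 0.14, limma adjusted p = 5.14e-05). Wfdc12, of the whey acidic protein family, had 0.210 and 0.398 against 7.25 and 11.4, and Spink12 had 0.0326 and 0.0619 against 2.23 and 0.637. Wfdc12 and Spink12, counted among the higher genes, passed the filter on their knockout values alone, so a lower call was not open to them. The lower gene was Serpina12, which encodes vaspin, an inhibitor of KLK7, with 94.8 and 99.6 against 75.4 and 64.8 (-0.47, SE 0.099, limma adjusted p = 0.0160).

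Of 15 tested kallikrein activators and other serine proteases, 8 were higher and 2 lower, against 8.99% and 25.4% of all tested genes. Their median was 0.30. The largest rises were in 4 transmembrane proteases of the Tmprss11 family that had low control levels. Tmprss11g had an FPKM of 1.002 and 1.437 in the controls against 20.4 and 23.9 in the knockouts (log2 fold change 3.39, SE 0.14, limma adjusted p = 8.39e-05). Tmprss11e, Tmprss11a and Tmprss11d, at or below 1.03 in the controls, had log2 fold changes of 1.43, 1.42 and 1.33. Tmprss11a and Tmprss11d, counted among the higher genes, passed the filter on their knockout values alone, so a lower call was not open to them. Tmprss11f, in the controls the most abundant of the family members tested, did not pass, at 22.7 and 26.3 against 23.9 and 17.2 (-0.26, limma adjusted p = 0.260). The lower genes were Tmprss4, at 161 and 159 against 107 and 104 (-0.60), and Dpp4, at 9.18 and 10.3 against 5.18 and 4.32 (-0.90).

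Of 12 tested cysteine and aspartic proteases of the upper epidermis, 4 were higher and 1 lower, against 8.99% and 25.4% of all tested genes. Their median was 0.26. Ctsl, the gene of cathepsin L, had an FPKM of 56.9 and 56.5 in the controls against 104 and 92.9 in the knockouts (log2 fold change 0.78, SE 0.089, limma adjusted p = 0.00209). Ctsh (cathepsin H) and Blmh (bleomycin hydrolase, which breaks down filaggrin peptides) had log2 fold changes of 0.87 and 0.77. Casp14, the caspase of cornifying keratinocytes, was the lower one, at 270 and 255 against 177 and 178 (-0.56).

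Among the receptors and other reported protease substrates, 6 of 9 were tested, with a median of 0.14. Of these 2 were higher and 1 lower, against 8.99% and 25.4% of all tested genes. F2rl1, which encodes the proteinase-activated receptor PAR2 on which Klk5 and Klk14 act, had an FPKM of 8.77 and 11.0 in the controls against 9.87 and 10.7 in the knockouts (log2 fold change 0.06, 95% interval -0.25 to 0.37, limma adjusted p = 0.743). Scnn1g and Scnn1b, subunits of the epithelial sodium channel that prostasin acts on, were higher, with log2 fold changes of 1.43 and 1.26. F2r, the PAR1 gene, was lower, at 6.07 and 6.91 against 2.31 and 3.26 (-0.99).

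**Figure D4:**
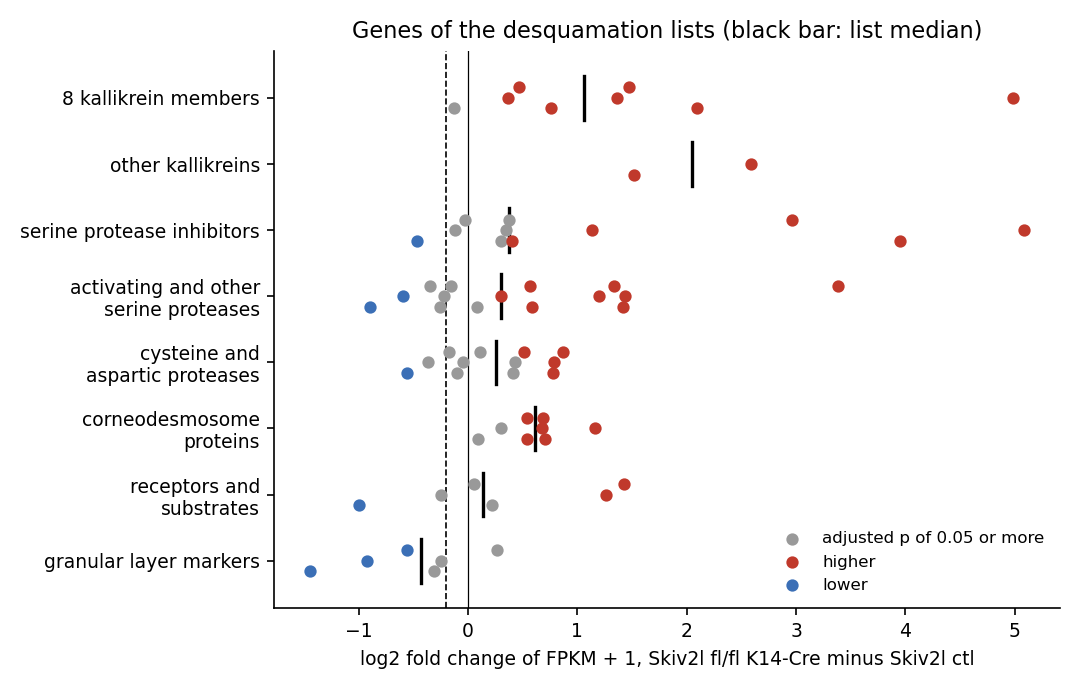
Log2 fold change of FPKM + 1, knockout minus control (horizontal axis), for each tested gene of the lists on the vertical axis (points; red, higher; blue, lower; gray, adjusted p of 0.05 or more), with a black bar at each list's median and a dashed line at the median of all tested genes. The medians of the lists of proteases, inhibitors and corneodesmosome genes lie between 0.26 and 2.05, that of the granular layer markers at -0.43.

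Some other measures of these libraries moved with the genotype too. The marker counts below need the whole test as their backdrop: 25.4% of its 13609 genes had a lower call and 8.99% a higher one. Scaling each library to the same median took the lower calls from 3455 to 1623, and the marker counts are from the fit without that scaling. A few lower calls in a short list are therefore not a shift of that cell type by themselves. Of 6 markers of the granular layer, where kallikreins are made, 0 were higher and 3 lower (Flg2, Lor and Casp14). Their summed FPKM was 6987 and 6368 in the controls against 5624 and 5008 in the knockouts. Flg, the largest part of that sum at 4087 and 3658 against 3460 and 3053, was not called (limma adjusted p = 0.160). Hrnr, the only 1 of the 6 with a positive log2 fold change (0.26), had 993 and 853 against 1165 and 1047. It was not called either (limma adjusted p = 0.124). Spinous markers summed to 23732 and 25205 against 16079 and 19625 with 1 of 4 lower, and basal markers to 4729 and 4891 against 9798 and 9795 with 2 of 7 higher (Krt14 and Itgb4) and Krt15 lower. Krt14 alone, at 1736 and 1812 against 7381 and 7312, accounts for the larger basal sum, and the median log2 fold change of the 7 was -0.08. The keratin genes of keratinocytes far exceeded markers of other cells. Fibroblast markers summed to 61.3 and 69.0 against 21.9 and 25.0, with 2 of 5 tested lower (Dcn and Col1a2). Dcn alone, at 57.0 and 62.7 against 16.9 and 21.4, accounts for most of the smaller fibroblast sum. Of the 5, 2 had a positive log2 fold change (Pdgfra at 0.44 and Col1a1 at 0.12), neither of them called. Endothelial markers summed to 0.750 or less in every pup. Hair follicle markers were lower in 4 of 9, summing to 82.9 and 118 against 58.7 and 62.0. Leukocyte markers summed to 18.0 and 22.3 against 17.3 and 14.9. Neutrophil markers summed to 0.247 and 0.767 against 6.89 and 6.03, with the defining Ly6g and Elane at 0 in all pups. Cxcr2 alone, at 0.127 and 0.208 against 6.51 and 5.56, accounts for the larger neutrophil sum. It was called higher, and it passed the filter on its knockout values alone. Csf3r, below the filter, overlapped between genotypes. Erythroid markers summed to 80.6 and 74.6 against 37.5 and 47.7, with 2 of 3 tested lower. Of the melanocyte markers 1 of 5 was higher (Tyrp1), with sums of 47.5 and 54.4 against 50.6 and 63.5, and of the mucosal markers 1 of 6 (Krt76), with sums of 5.53 and 17.4 against 11.6 and 15.7. Of the 4 muscle markers none passed the filter. The part of these shifts in the protease results was not tested.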

How the data were processed

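RNA of 4 P0 epidermis samples was sequenced as total RNA, and a table for each library was deposited. The deposited FPKM correct fragments for length and depth. The deposited TPM have the same sum in every library, and the deposited coverage is a signal of mean depth per base. The build is GRCm38, and 54029 of 54752 gene identifiers matched GENCODE M21. The aligner and strandedness are not given in the sources used here. The tables hold no read counts. Coverage divided by FPKM puts depth at 5.84 to 6.27 gigabases. The 37 mitochondrial genes are listed at 0.

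FPKM were summed per gene identifier. Of 21921 protein-coding genes, 13609 reached an FPKM above 0.5 in 1 or more samples and were tested as log2(FPKM + 1) with limma 3.58.1 (lmFit, eBayes with trend) in R 4.3.3, two-sided, with Benjamini-Hochberg adjustment and no covariates. The pups are separate animals, but n = 2. Sums and ratios were tested with exact two-sided permutation in scipy 1.17.1. The code was tested on simulated data.

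The 10 members and the gene lists were chosen with earlier results of these data known. Beside the members, the text names up to 4 called genes of each list with the largest absolute log2 fold change, and Prss8, Spint1, Cdsn, Dsg1a, Dsg1b, Dsc1, F2rl1 and Ctsl for their roles. Serpina12, Tmprss4, Dpp4, Tmprss11f, Cxcr2, 2310002F09Rik and the cell type markers that are named outside this rule were chosen after their values were seen. Alternatives were the pseudocount, the filter, TPM, coverage, median and quantile scaling, a replicate block, eBayes without trend, all gene types, a 2-fold threshold and leaving out each pup.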

Additional observations from a re-analysis of the deposited data

How the results depend on the processing

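The 10 members were refitted under 14 settings, and of these 140 fits 127 kept the direction and the side of the threshold, 9 lost the call and 4 changed sign. The changes of sign were in the uncalled genes. Klk5 went from -0.12 to 0.088 with median scaling and ranged from -0.27 to 0.024 with a pup left out. St14 went from -0.15 to 0.054 with median scaling and ranged from -0.31 to 0.0050 with a pup left out. Of the lost calls, 5 were Klk8 (eBayes without trend, and each pup left out), 2 Klk11 and 2 Klk14 (either control left out). Members higher numbered 8, with 5 at 2-fold or more and 5 to 7 with a pup left out.

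In the fit as reported, 1223 genes were higher and 3455 lower. Median scaling gave 1894 and 1623, and moved the median log2 fold change from -0.20 to -0.03. Quantile normalization gave 1683 and 1917. A 2-fold threshold gave 421 and 480, and leaving out a pup 497 to 1146 and 805 to 3135, the lowest counts being those without a control pup. Skiv2l ranged from -1.08 to -0.77 with a pup left out, with an adjusted p of 0.0562 and 0.0547 in limma without control pup 1 or 2. A fit with 1 pup in an arm assumes that this pup varies like the other group. The log2 difference of summed kallikreins was 0.90 by FPKM and 0.85 by TPM. The cause of these shifts was not tested.

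A replicate block gave 1264 higher and 3393 lower genes and the same 8 members, but replicate numbers of different pups did not pair the samples (correlation of replicate differences between genotypes -0.077 over 13609 genes). Without read counts, genes of low FPKM such as Klk14 have no counting error to set beside their values.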

Other observations

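Genes on either side of the kallikrein cluster, looked at after the values of the cluster were known, moved in different ways. Siglece, a sialic acid-binding receptor gene of myeloid cells before Klk14, had an FPKM of 0.538 and 0.527 in the control pups and of 1.13 and 1.41 in the knockout pups (log2 fold change 0.56, limma adjusted p = 0.0290). Ctu1, a tRNA-modifying enzyme gene that lies nearer to Klk14, had 7.26 and 8.39 against 5.91 and 4.85 (-0.47, limma adjusted p = 0.0381). Klk4, the first kallikrein gene after Klk5 and below the filter, had 0.261 and 0.127 against 0.458 and 0.431 and was not tested.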
